A study of Homo sapiens with 12 samples.

Results

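The actin regulators MISP, KANK1 and COBL were examined together with KANK2, KANK4, COBLL1, ARHGAP6, DAPK1, EPS8 and EPS8L1 in 2 breast cancer cell lines with and without CD44, the cell surface receptor for hyaluronan. These 10 genes were taken from a table of 58381 genes. MISP, KANK1 and COBL were selected on the measured values themselves, because their counts were lower in CD44 knockout (KO) cells of both lines. ARHGAP6 and DAPK1 were listed with the result of the same comparison known, so for these 5 genes the values in CD44 KO cells are a description without a test. KANK2, KANK4, COBLL1, EPS8 and EPS8L1 were added as paralogs or kin of actin regulators, and their changes were tested. They are called the paralogs below, although EPS8 and EPS8L1 are relatives of each other and not of MISP, KANK1 or COBL. Of the 10 genes, 9 passed the filter on low counts (above 1 CPM, the count scaled to the size of the library, in 2 or more libraries), and KANK4 did not.

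Hs578T and MDA-MB-231 are human cell lines of triple negative breast cancer. Cells of each line carried a doxycycline-inducible Cas9. CD44 KO cells had received guide RNAs to exons of CD44 and were sorted as CD29+ and CD44-, whereas CD44 WT control cells had received the transfection reagent without guides and were sorted as CD29+ and CD44+. All cells were starved in medium with little serum before RNA was taken. Each group (Hs578T CD44 WT, Hs578T CD44 KO, MDA-MB-231 CD44 WT and MDA-MB-231 CD44 KO) had 3 libraries made from sorted populations, not from clones. Whether the replicates were cultured separately is not stated, so the tests measure only the spread between these libraries.

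The cortex under the plasma membrane is a meshwork of actin filaments whose growth, bundling and anchoring are set by families of regulators. Nucleators such as COBL start new filaments, capping and bundling proteins such as EPS8 end or join them, and small GTPases with their GTPase-activating proteins and myosin kinases set the contractile force. KANK proteins bind talin at the rim of focal adhesions and tie it to cortical microtubules, and MISP bundles actin at the cortex and helps to place the mitotic spindle. CD44 itself is tied to cortical actin through ERM proteins.

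The sequence around an annotated start is given for 5 genes that the values in CD44 KO cells single out. Windows from 250 bases before to 50 bases after the start were taken from RefSeq (GRCh38.p14) and matched 8 of the 10 genes, without COBL and EPS8. The windows of MISP (chr19:750862-751161, plus strand), KANK1 (chr9:470045-470344, plus strand, 1 of 4 annotated starts), DAPK1 (chr9:87497617-87497916, plus strand, 1 of 2), COBLL1 (chr2:164842027-164842326, minus strand, 1 of 3) and ARHGAP6 (chrX:11665871-11666170, minus strand) are printed 5′ to 3′ on the strand of the gene. They are shown because MISP, KANK1 and DAPK1 lay lower in CD44 KO cells of both lines, ARHGAP6 higher in both and COBLL1 was called higher in Hs578T. The starts of DAPK1 and COBLL1 lie 639 and 1603 bases inside the counted genes. Capitals mark the GC box (GGGCGG) and the TEAD motif (GGAATG), searched on both strands.
MISP: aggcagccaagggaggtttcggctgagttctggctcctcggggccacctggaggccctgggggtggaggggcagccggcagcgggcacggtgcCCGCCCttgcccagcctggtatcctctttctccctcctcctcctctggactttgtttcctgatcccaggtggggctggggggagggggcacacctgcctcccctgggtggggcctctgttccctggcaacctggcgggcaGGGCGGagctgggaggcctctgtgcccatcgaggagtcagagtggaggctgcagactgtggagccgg
KANK1: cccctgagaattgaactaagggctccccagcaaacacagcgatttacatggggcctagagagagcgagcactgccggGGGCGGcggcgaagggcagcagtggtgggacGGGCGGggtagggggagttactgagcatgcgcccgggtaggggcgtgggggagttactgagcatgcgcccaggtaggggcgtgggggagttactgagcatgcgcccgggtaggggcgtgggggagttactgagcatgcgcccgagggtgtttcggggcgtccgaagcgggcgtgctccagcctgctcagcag
DAPK1: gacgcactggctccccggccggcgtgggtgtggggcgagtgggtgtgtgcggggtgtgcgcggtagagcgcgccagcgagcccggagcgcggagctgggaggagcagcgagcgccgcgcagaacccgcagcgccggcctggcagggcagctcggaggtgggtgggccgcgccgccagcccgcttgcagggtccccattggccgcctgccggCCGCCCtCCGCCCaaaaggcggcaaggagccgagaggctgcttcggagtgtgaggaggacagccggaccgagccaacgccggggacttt
COBLL1: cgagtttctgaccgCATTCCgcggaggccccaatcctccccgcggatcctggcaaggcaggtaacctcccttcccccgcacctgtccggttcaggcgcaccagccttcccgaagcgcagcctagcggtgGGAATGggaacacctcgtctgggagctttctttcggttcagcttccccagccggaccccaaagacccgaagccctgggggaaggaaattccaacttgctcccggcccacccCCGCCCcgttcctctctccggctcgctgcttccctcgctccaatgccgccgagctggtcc
ARHGAP6: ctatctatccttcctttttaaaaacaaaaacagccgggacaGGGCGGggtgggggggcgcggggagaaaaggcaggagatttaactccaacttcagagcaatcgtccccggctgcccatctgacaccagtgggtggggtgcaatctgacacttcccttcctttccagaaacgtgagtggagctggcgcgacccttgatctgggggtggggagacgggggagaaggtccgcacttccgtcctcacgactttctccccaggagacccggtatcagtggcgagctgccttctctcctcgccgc

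A GC box was found in 7 of the 8 windows, and in 45.0% of 35116 windows of the same length. Those 7 windows were 59.3 to 77.3% G and C, each above the median over all windows. The window of KANK4, without a GC box, was 49.0% G and C. The start used for EPS8L1 lies 3849 bases inside the counted gene. The MISP window held 2 GC boxes and was 69.3% G and C, against a median of 58.7% over all windows. It held neither the AP-1 motif (TGANTCA, in 7.71% of windows) nor the TEAD motif (14%), the CCAAT box (34.6%), the TATA box (TATAAA, 11.5%) or the SRF CArG box (1.29%). The KANK1 window likewise held 2 GC boxes and none of the other motifs. It contained 4 exact copies of a 24-base unit, GGGGGAGTTACTGAGCATGCGCCC. DAPK1 held 2 GC boxes and 1 CCAAT box, all on the opposite strand. COBLL1 held 2 TEAD motifs, on opposite strands, 2 CCAAT boxes and 1 GC box. ARHGAP6 held 1 GC box and no other motif searched. A match describes letters only, and counts per gene do not show which start a transcript used.

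The 12 libraries held 10257586 to 19725543 counts (median 12186096.5), and 15836 genes were tested. CD44, the targeted gene, reached 507 ± 17.6 CPM in Hs578T CD44 WT and 27.3 ± 2.06 CPM in CD44 KO (mean ± SD, n = 3 libraries here and throughout). In MDA-MB-231 it reached 362 ± 1.70 and 34.2 ± 5.4 CPM. Of the receptors that define the subtype, PGR had no counts and ESR1 was below 1 CPM in each group mean, while ERBB2 was at 61.9 to 94.5 CPM. Of 8 mesenchymal markers all 8 were above 1 CPM in Hs578T and 5 in MDA-MB-231, where CDH2, SPARC and LUM were near or at 0. Of 8 epithelial markers 4 were above 1 CPM in Hs578T CD44 WT, 3 in Hs578T CD44 KO and 5 in both MDA-MB-231 groups. The epithelial keratin KRT8 had group means of 307 to 571 CPM. The summed level of 10 mitosis genes was 3469 to 3702 CPM in Hs578T CD44 WT and 3039 to 3267 CPM in CD44 KO, and 3908 to 4200 against 4066 to 4414 CPM in MDA-MB-231. The part of this difference in the values of MISP was not tested. All levels are CPM scaled by the trimmed mean of M-values (TMM). In such bulk samples, fewer cells that express a gene and less RNA per cell cannot be told apart.

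MISP, the cortical actin bundler, showed the lowest levels relative to control among the genes the set was built on. In Hs578T CD44 WT its level was 17.1, 13.9 and 8.13 CPM in replicates 1, 2 and 3, and in Hs578T CD44 KO it was 1.04, 1.05 and 0.938 CPM. In MDA-MB-231 CD44 WT it was 2.83 and 3.81 CPM in replicates 1 and 3 and 2.85 CPM in a library without a replicate number, and in CD44 KO it was 0.424, 0.848 and 0.494 CPM. No library of any group overlapped with another group, and the order from high to low was Hs578T CD44 WT, MDA-MB-231 CD44 WT, Hs578T CD44 KO and MDA-MB-231 CD44 KO. The means were 13.03 ± 4.53, 3.16 ± 0.561, 1.01 ± 0.062 and 0.588 ± 0.227 CPM in that order. On the log2 scale the fitted change in the KO cells was -3.68 (standard error 0.302) in Hs578T and -2.32 (0.368) in MDA-MB-231. Few counts stood behind the values of the KO cells, 41 in all in Hs578T and 26 in MDA-MB-231. On GRCh38, MISP (ENSG00000099812.8) spans 751126 to 764318 of chromosome 19 (plus strand).

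KANK1, which links talin at adhesions to microtubules, was the most highly counted of the 3 genes. In Hs578T CD44 WT its level was 55.8, 42.4 and 34.8 CPM, and in CD44 KO it was 19.3, 22.4 and 18 CPM. In MDA-MB-231 CD44 WT it was 23.1 and 21.5 CPM in replicates 1 and 3 and 25.4 CPM in the unnumbered library, and in CD44 KO it was 13.4, 10.7 and 12.7 CPM. The KO libraries lay below the WT libraries in each line, but Hs578T CD44 KO and MDA-MB-231 CD44 WT overlapped. The log2 fold change was -1.15 (standard error 0.158) in Hs578T and -0.94 (0.168) in MDA-MB-231. KANK1 (ENSG00000107104.18) spans 470291 to 746106 on the plus strand of chromosome 9.

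COBL, the WH2-domain nucleator cordon-bleu, was lower in CD44 KO cells by unlike amounts in the lines. Its level was 8.39, 8.31 and 6.69 CPM in Hs578T CD44 WT and 4.41, 4.07 and 5.20 CPM in CD44 KO. In MDA-MB-231 it was 4.54 and 3.97 CPM in CD44 WT replicates 1 and 3, 3.83 CPM in the unnumbered library, and 1.19, 1.01 and 0.691 CPM in CD44 KO. Here too, Hs578T CD44 KO overlapped with MDA-MB-231 CD44 WT. The log2 fold change was -0.78 (standard error 0.185) in Hs578T and -2.07 (0.241) in MDA-MB-231. MISP thus had the larger value of the fold change in Hs578T and COBL the smaller one, while in MDA-MB-231 their values were close. The difference between lines is not read as a test for these genes, since it is made of the KO against WT values they were chosen on. COBL (ENSG00000106078.17) lies on the minus strand of chromosome 7, from 51016212 to 51316818.

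Among all genes tested, 2.95% had every CD44 KO library below every CD44 WT library in both lines. MISP, KANK1 and COBL were chosen for this pattern and nothing is read from their count. DAPK1, a calcium and calmodulin dependent kinase that phosphorylates myosin light chains, also had it. In MDA-MB-231 DAPK1 reached 47.7 and 39.9 CPM in CD44 WT replicates 1 and 3, 47.0 CPM in the unnumbered library, and 26.8, 26.1 and 21.9 CPM in CD44 KO. In Hs578T it was 3.95, 3.78 and 2.88 CPM in CD44 WT and 0.642, 1.11 and 1.02 CPM in CD44 KO. No groups overlapped, and the log2 fold change was -1.91 (standard error 0.239) in Hs578T and -0.84 (0.133) in MDA-MB-231.

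ARHGAP6, a GTPase-activating protein, lay the other way. It was at 0.416, 0.576 and 0.339 CPM in Hs578T CD44 WT and 1.69, 2.65 and 1.19 CPM in CD44 KO. In MDA-MB-231 it was at 2.66 and 3.33 CPM in CD44 WT replicates 1 and 3, 1.96 CPM in the unnumbered library, and 6.52, 6.57 and 8.10 CPM in CD44 KO. Its KO libraries lay above the WT libraries in both lines, with a log2 fold change of 2.07 (standard error 0.392) in Hs578T and 1.40 (0.261) in MDA-MB-231. Only 17 counts in all stood behind the Hs578T CD44 WT level.

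**Figure D1:**
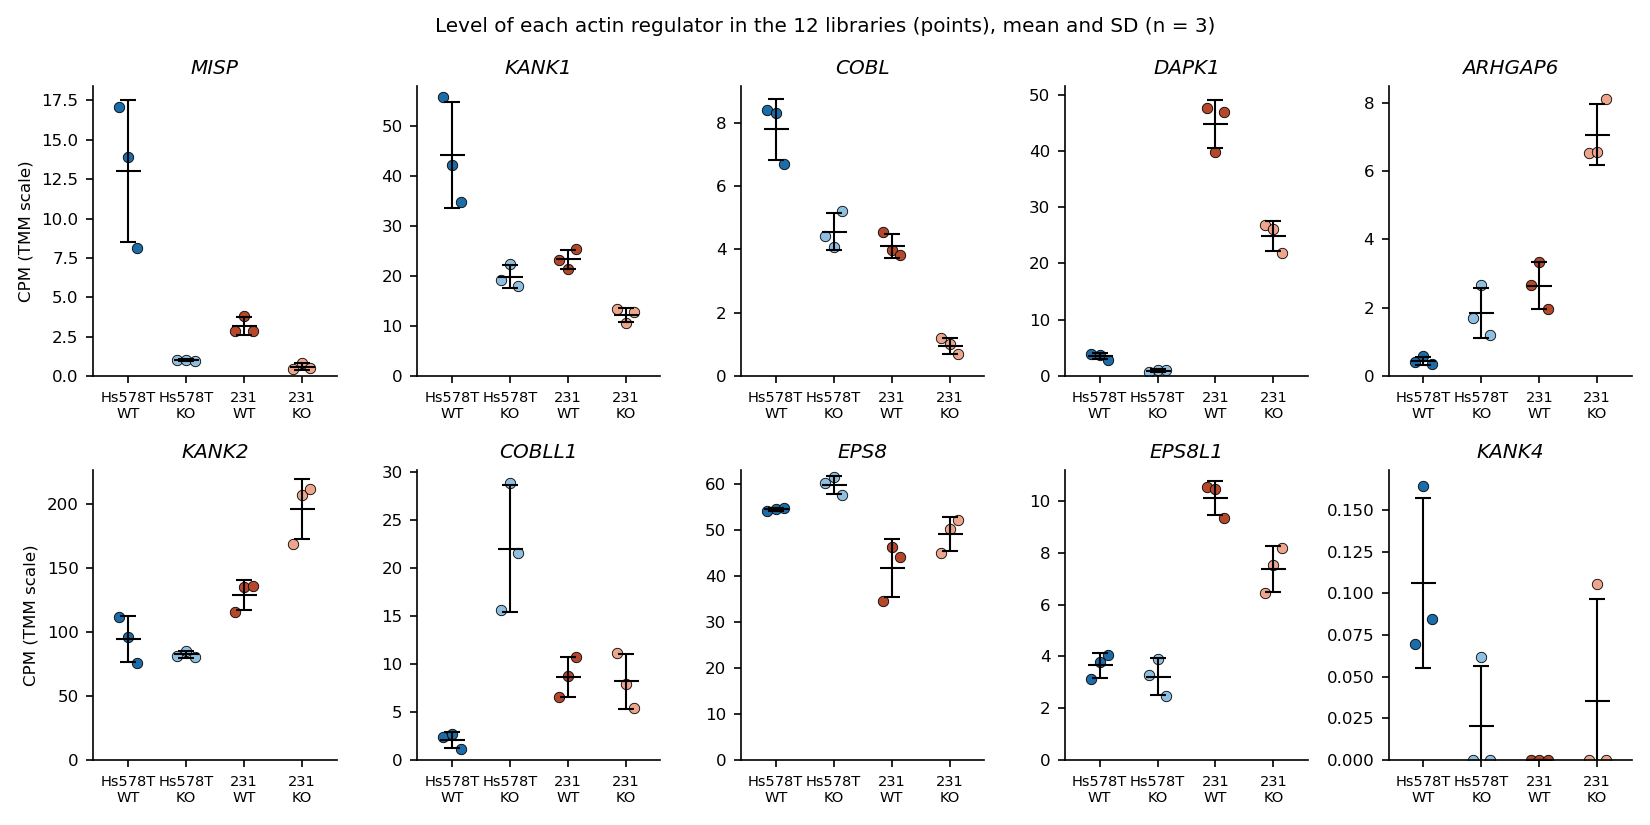
Level of each of the 10 genes (CPM on the TMM scale, linear axis from 0) in the 12 libraries. Points are libraries, horizontal ticks are means and bars are SD (n = 3), and 231 stands for MDA-MB-231. MISP is at 8.13 to 17.1 CPM in Hs578T CD44 WT and near or below 1 CPM in both CD44 KO groups, while KANK4 has at most 4 counts in any group.

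The paralogs did not share one direction. In Hs578T, 1 of the 4 paralogs that were tested passed the threshold, an adjusted p of 0.01 or less in edgeR's quasi-likelihood test over all genes: COBLL1, where 7.51% of all genes were called. In MDA-MB-231 another 1 of 4 was called, KANK2, where 4.62% of all genes were called. A difference of the changes between the lines was called for COBLL1, and for 4.12% of all genes.

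COBLL1, the cordon-bleu relative, rose in Hs578T CD44 KO cells. It was at 2.43, 2.72 and 1.10 CPM in CD44 WT and 15.6, 28.8 and 21.6 CPM in CD44 KO. In MDA-MB-231 it was at 6.51 and 8.76 CPM in CD44 WT replicates 1 and 3, 10.7 CPM in the unnumbered library, and 11.2, 7.95 and 5.43 CPM in CD44 KO, which overlapped. The log2 fold change was 3.39 (standard error 0.330, adjusted p = 6.95e-06, edgeR) in Hs578T and -0.07 (0.294, adjusted p = 0.944) in MDA-MB-231. The difference of these changes was 3.46 (standard error 0.446, adjusted p = 1.42e-04, edgeR). COBL and COBLL1 thus had opposite signs in Hs578T, by a description for COBL and a test for COBLL1. COBLL1 (ENSG00000082438.15) lies on the minus strand of chromosome 2, from 164653624 to 164843679.

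KANK2, the talin-binding relative of KANK1, was higher in CD44 KO cells of MDA-MB-231. It was at 115.4 and 135.4 CPM in CD44 WT replicates 1 and 3, 136.0 CPM in the unnumbered library, and 168.8, 207.1 and 211.5 CPM in CD44 KO. In Hs578T it was at 111.6, 96.2 and 75.6 CPM in CD44 WT and 81.2, 85.3 and 80.7 CPM in CD44 KO, which lay within the WT range. In the edgeR fit KANK2 changed by 0.60 on the log2 scale (standard error 0.127, adjusted p = 0.00664) in MDA-MB-231 and had a value of -0.20 (0.128, adjusted p = 0.356) in Hs578T, and their difference of -0.80 (0.180) missed the threshold with an adjusted p of 0.0109. The call in MDA-MB-231 was lost without 9 of the 12 libraries, each left out in turn, with adjusted p from 0.0104 to 0.0363. It was kept only without Hs578T CD44 WT replicate 1 or 3 or MDA-MB-231 CD44 KO replicate 1.

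EPS8, the capping and bundling protein, differed little between CD44 WT and CD44 KO cells. It was at 54.0, 54.5 and 54.8 CPM in Hs578T CD44 WT and 60.2, 61.4 and 57.7 CPM in CD44 KO, a log2 difference of 0.13 (standard error 0.105, adjusted p = 0.457, edgeR). Its groups overlapped in MDA-MB-231, at 34.5 to 46.2 CPM in CD44 WT and 45.0 to 52.1 CPM in CD44 KO, with a log2 difference of 0.24 (0.107, adjusted p = 0.193). EPS8L1, an EPS8 relative, had a log2 difference of -0.16 (0.203, adjusted p = 0.668) in Hs578T and -0.46 (0.174, adjusted p = 0.121) in MDA-MB-231, where its level was 9.36 to 10.5 CPM in CD44 WT and 6.44 to 8.20 CPM in CD44 KO. For EPS8 and EPS8L1 no difference between the lines was called (adjusted p = 0.745 and 0.554). KANK4 had 4 counts in all in Hs578T CD44 WT, 1 in Hs578T CD44 KO, 0 in MDA-MB-231 CD44 WT and 2 in CD44 KO, too few for a comparison.

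**Figure D2:**
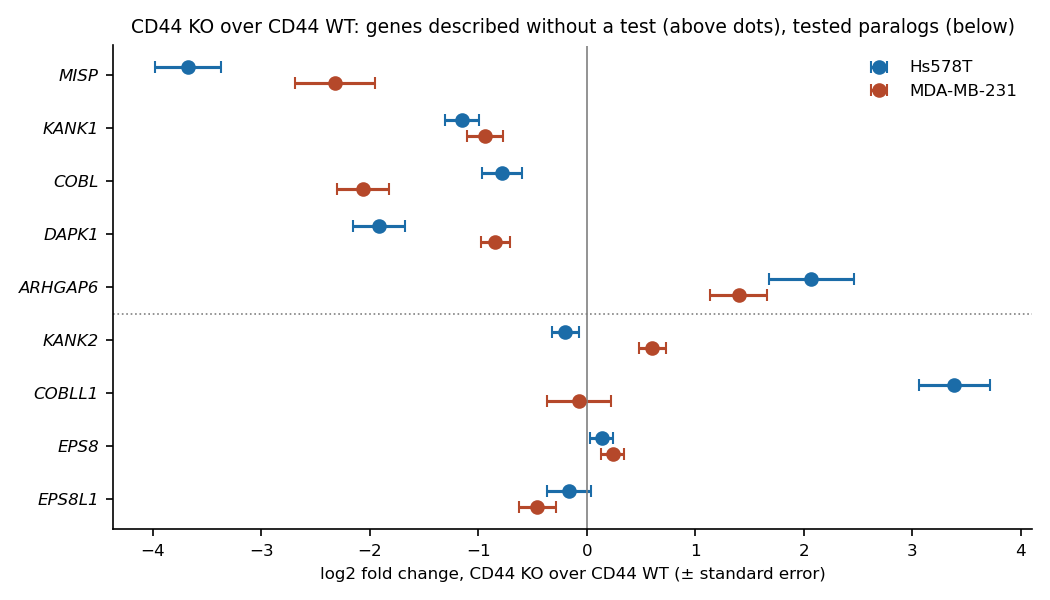
Fitted log2 change in CD44 KO cells relative to WT in each line for the 9 genes that passed the filter, with bars of 1 standard error. Genes above the dotted line are described without a test, and those below it were tested. COBLL1 is at -0.07 in MDA-MB-231 and 3.39 in Hs578T.

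The CD44 WT control cells of Hs578T and MDA-MB-231 differed in all 9 of the tested genes. Between Hs578T CD44 WT and MDA-MB-231 CD44 WT, a comparison that did not choose the genes but shares their control libraries, all 9 tested genes passed the threshold, where 61.5% of all genes did. MISP, KANK1, COBL and EPS8 were higher in Hs578T, and KANK2, COBLL1, ARHGAP6, DAPK1 and EPS8L1 were lower. The log2 difference of Hs578T over MDA-MB-231 was 2.04 for MISP (standard error 0.262, adjusted p = 4.32e-06, edgeR), 0.93 for KANK1 (0.158, adjusted p = 7.67e-05) and 0.92 for COBL (0.189, adjusted p = 4.26e-04). For DAPK1 it was -3.65 (0.161, adjusted p = 2.36e-11), for ARHGAP6 -2.56 (0.379, adjusted p = 1.79e-05), for COBLL1 -2.04 (0.348, adjusted p = 7.97e-05) and for EPS8L1 -1.47 (0.187, adjusted p = 3.75e-06). The differences of KANK2, -0.45 (0.128, adjusted p = 0.00539), and EPS8, 0.39 (0.107, adjusted p = 0.00434), were smaller. That of EPS8 lost its call without any of Hs578T CD44 WT replicates 1, 2 and 3 (adjusted p = 0.011, 0.0126 and 0.0121). That of KANK2 lost it without Hs578T CD44 WT replicate 2 or 3, Hs578T CD44 KO replicate 3, MDA-MB-231 CD44 WT replicate 3 or the unnumbered library (adjusted p = 0.0178, 0.0309, 0.0138, 0.0217 and 0.0183), and on the scale of library size alone (adjusted p = 0.0346).

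Compared per kilobase of exons, so that genes of unlike length can be set side by side, KANK2 had the highest level of these genes in every group, from 10.8 CPM per kilobase in Hs578T CD44 KO to 25.6 in MDA-MB-231 CD44 KO. EPS8 followed in Hs578T, with 6.26 in CD44 WT and 6.87 in CD44 KO. MISP stood at 4.39 ± 1.53 and KANK1 at 3.72 ± 0.895 CPM per kilobase in Hs578T CD44 WT, which did not differ beyond their spread. In Hs578T CD44 KO, MISP at 0.340 ± 0.021 was close to COBL at 0.318 ± 0.041, while KANK1 was at 1.67 ± 0.192. In MDA-MB-231 CD44 WT the highest level after KANK2 was that of DAPK1, at 5.03 ± 0.481, beside EPS8 at 4.79 ± 0.724. COBL was the lowest in MDA-MB-231 CD44 KO among the tested genes, at 0.067 CPM per kilobase.

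The 5 tested genes most like each of the 3 lead genes were found by Pearson's r of log2 CPM over the 12 libraries, which fall into 4 groups that the correlation mostly reads, so these are descriptions without a test. The genes most like MISP were DOCK8 (r = 0.987), MGAT1 (0.959), NKX2-1 (0.959), SLC1A7 (0.958) and GEN1 (0.946). Those most like KANK1 included ROR2 (0.943), ZNF326 (0.942), MBOAT2 (0.941) and DOCK8 (0.940), and those most like COBL were KCNK5 (0.973), CADM1 (0.970), TMEM9B (0.970), SUSD2 (0.965) and SYK (0.964). Between the lead genes r was 0.933 for MISP and KANK1, 0.879 for KANK1 and COBL and 0.792 for MISP and COBL. Since all 3 were chosen as lower in CD44 KO cells of both lines, positive values of r are partly built in.

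DOCK8, a guanine nucleotide exchange factor for CDC42, is on the lists of both MISP and KANK1. It is also the tested gene next to KANK1 on chromosome 9, from 214854 to 465259 on the same strand. Its level was 15.1, 10.7 and 6.26 CPM in Hs578T CD44 WT and 0.160, 0.247 and 0 CPM in CD44 KO. In MDA-MB-231 CD44 WT libraries gave 32 counts in all and CD44 KO libraries 1 count, a ratio of 37.1 with an exact 95% interval from 6.19 to 1510 that covers counting error only. In Hs578T the log2 fold change of DOCK8 was -6.10 (standard error 0.489), beside -1.15 for KANK1. DOCK8 was highest in replicate 1 and lowest in replicate 3 of Hs578T CD44 WT, as were MISP, KANK1, KANK2, COBL and DAPK1.

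KANK1 had 14 tested neighbours, up to 10 on each side, of which 14.3% were called in Hs578T and 21.4% in MDA-MB-231, against 7.51% and 4.62% of all genes. In Hs578T DOCK8 was called lower, SLC1A1 was called higher and the median log2 fold change was 0.213 over the 12 neighbours with counts. In MDA-MB-231 DOCK8 and DMRT2 were called lower, GLIS3 was called higher and the median was -0.315. DOCK8 passed the filter through Hs578T CD44 WT libraries alone and was below 1 CPM in each MDA-MB-231 library. Its calls are therefore descriptions and not tests, although the shares of both lines include them. SLC1A1, DMRT2 and GLIS3 are named because they were called, after their values were seen. Among the 20 nearest tested neighbours of MISP 1 was called lower in Hs578T (5%) and none in MDA-MB-231, with medians of -0.185 and -0.248. For COBL 2 were called lower and 3 higher in Hs578T (25%) and none in MDA-MB-231, with medians of -0.05 and 0.169. For the paralog COBLL1 1 of 20 was called lower and 6 higher in Hs578T (35%), and none in MDA-MB-231. The medians were 0.173 over 19 neighbours with counts and 0.03 over 18. Whether the rise of COBLL1 in Hs578T goes with its neighbourhood was not tested. Over all genes the medians were -0.002 and -0.01, in the same order.

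**Figure D3:**
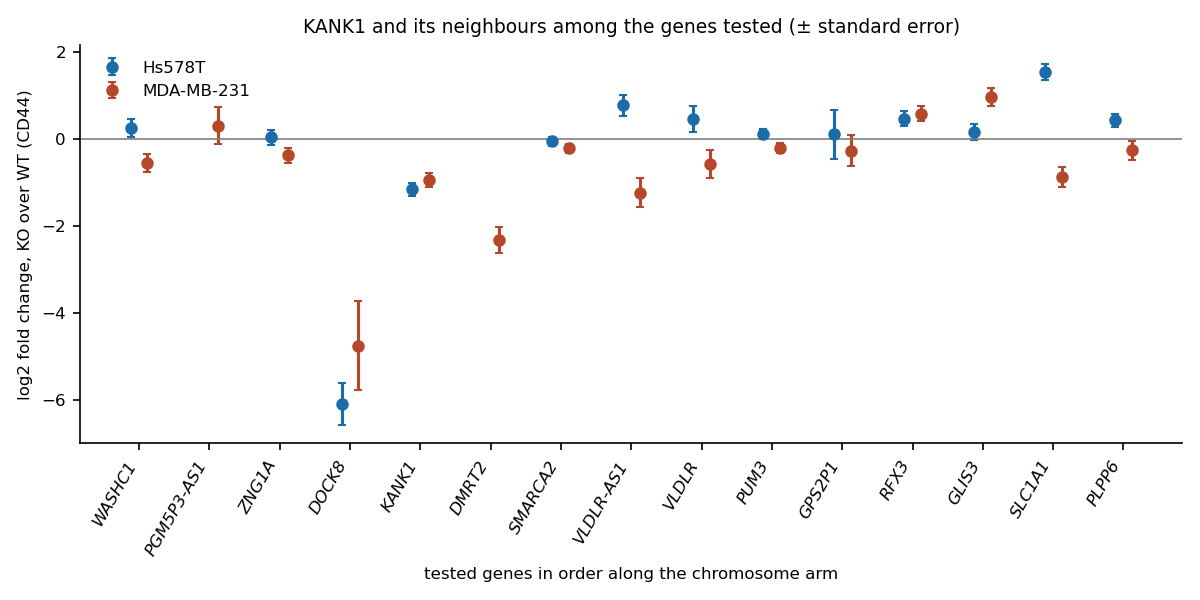
Fitted log2 change in CD44 KO cells relative to WT for KANK1 and its 14 tested neighbours, in their order along the chromosome, with bars of 1 standard error. A gene without counts in a line has no point there. DOCK8 is at -6.10 in Hs578T and -4.75 in MDA-MB-231, and KANK1 at -1.15 and -0.94.

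Lists of 205 other actin regulators, of which 192 were tested, place these genes among their pathway. The lists held no member of the set. In Hs578T 12 were lower and 4 higher in CD44 KO, which is 8.33% against 7.51% of all genes tested. The 12 include EPS8L3, which passed the filter through Hs578T CD44 WT libraries alone and is described below without a test. By direction this is 6.25% lower and 2.08% higher, against 3.86% and 3.64% of all genes. In MDA-MB-231 3 were lower and 7 higher, 5.21% against 4.62%, or 1.56% lower and 3.65% higher against 2.65% and 1.97%. The medians of the log2 fold change were -0.02 and 0.03, against -0.002 and -0.01 for all genes. LCP1 was the only listed gene called in both lines, with opposite signs.

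Of 37 tested nucleators and their activators, the class of COBL, 1 was called in Hs578T, or 2.7% against 7.51% of all genes. In MDA-MB-231 1 was called lower and 3 higher, 10.8% against 4.62%, and these shares were not compared by a test. The gene lower in Hs578T was ACTR3, a subunit of the Arp2/3 complex, at -0.38 on the log2 scale (standard error 0.084, adjusted p = 0.0066, edgeR). The formin DAAM2 fell in MDA-MB-231 from 14.6 ± 2.09 to 2.57 ± 0.322 CPM, a log2 fold change of -2.49 (0.203, adjusted p = 1.53e-06). The formin FHOD3 rose from 7.76 ± 1.11 to 21.7 ± 0.888 CPM, by 1.48 (0.142, adjusted p = 9.67e-06), and WASF3, a WAVE protein, by 0.77 (0.162, adjusted p = 0.00654). FMN2, another formin, was also higher there.

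Of 36 tested capping and bundling genes, the class of EPS8, 5 were called lower and 1 higher in Hs578T, or 16.7% against 7.51% of all genes, a difference that was not tested. In MDA-MB-231 1 of the 36 was called, or 2.78% against 4.62% of all genes. EPS8L2, a relative of EPS8, fell from 15.3 ± 6.98 to 2.55 ± 0.445 CPM, by 2.61 on the log2 scale (standard error 0.305, adjusted p = 3.77e-05, edgeR). It stood in MDA-MB-231 at 137.6 ± 13.6 CPM in CD44 WT and 74.9 ± 0.860 CPM in CD44 KO, a log2 difference of -0.88 (0.208) with an adjusted p of 0.0136. Synaptopodin (SYNPO) was at -1.78 in Hs578T (0.211, adjusted p = 4.28e-05) and the pointed-end capper TMOD1 at -1.13 (0.225, adjusted p = 0.00314). LCP1, the bundler L-plastin, rose in Hs578T from 119.5 ± 11.3 to 219.6 ± 30.9 CPM (0.88, standard error 0.187, adjusted p = 0.00489) and fell in MDA-MB-231 from 42.5 ± 12.8 to 18.5 ± 5.11 CPM (-1.22, 0.208, adjusted p = 0.00154). EPS8L3, among the 5 called lower, had 41 counts in Hs578T CD44 WT and 0 in CD44 KO. With the KO group set to a floor of 3 counts it was 14.4-fold lower. Its WT libraries held 4 to 19 counts, and it passed the filter through Hs578T CD44 WT libraries alone. Its fall is therefore a description and not a test, although the share of 16.7% includes it. The tropomyosin TPM1 was lower in Hs578T as well.

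Of 28 severing and turnover genes, 2 were called higher in Hs578T and 1 in MDA-MB-231. These were 7.14% and 3.57%, against 7.51% and 4.62% of all genes. Scinderin (SCIN), a severing protein of the gelsolin family, rose in Hs578T from 2.07 ± 0.253 to 19.5 ± 4.53 CPM (3.24, standard error 0.232, adjusted p = 2.9e-07, edgeR), beside a value of -0.95 (0.261, adjusted p = 0.0304) in MDA-MB-231. The coronin CORO2A was higher in Hs578T (0.77, 0.106, adjusted p = 1.47e-04). CORO2B rose in MDA-MB-231 from 7.17 ± 0.442 to 21.9 ± 1.08 CPM (1.61, 0.183, adjusted p = 5.46e-05).

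Known partners of KANK proteins, 19 tested, had no call in Hs578T by edgeR, with 2 of the 19 (10.5%) at an unadjusted p under 0.05, against 27.4% of all genes. In MDA-MB-231 1 was called (5.26% against 4.62% of all genes), the liprin PPFIBP2, which fell from 7.74 ± 0.492 to 1.00 ± 0.264 CPM (-2.96, standard error 0.231, adjusted p = 1.18e-06). Among 25 partners of MISP and the cortex, the mitotic kinase CDK1 (0.60, adjusted p = 6.19e-04) and the scaffold IQGAP1 (0.70, adjusted p = 0.00502) were higher in MDA-MB-231. In Hs578T the ERM kinase STK10 was higher (0.61, adjusted p = 4.57e-04) and the dynactin subunit DCTN1 lower (-0.41, adjusted p = 0.00129). IQGAP2 had 232 counts in Hs578T CD44 WT and 0 in CD44 KO, which is 81.4-fold lower with the KO group set to a floor of 3 counts. The myosin light chain MYL9 (-0.76, adjusted p = 0.0022), the myosin phosphatase subunit PPP1CB (-0.57, adjusted p = 0.00257) and the GTPase-activating protein ARHGAP28 (-0.77, adjusted p = 0.00523) were lower in Hs578T. In MDA-MB-231 the kinase STK17A, a relative of DAPK1, was higher (0.49, adjusted p = 0.00977). PPFIBP2, IQGAP2, FMN2 and TPM1 were named after their values were seen.

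The count of called regulators in Hs578T rested on the libraries used. It was 8 without Hs578T CD44 WT replicate 1, 7, 9 and 9 without CD44 KO replicate 1, 2 and 3, and 30 without MDA-MB-231 CD44 WT replicate 1, against 16 with all libraries. In MDA-MB-231 it was 6 without CD44 WT replicate 3, 5 without CD44 KO replicate 2 and 6 without CD44 KO replicate 3, against 10. Kin of the members outside the set, DAPK2 and DAPK3, were not called in either line, and KANK3 and ARHGAP36 had too few counts to test.

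**Figure D4:**
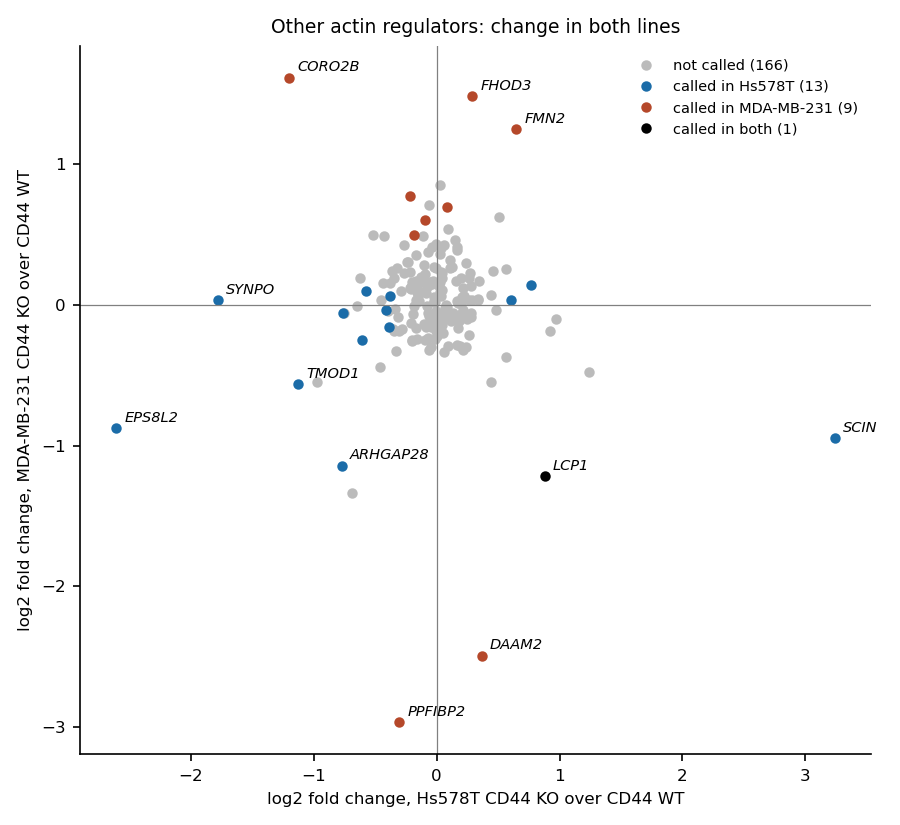
Fitted log2 change in CD44 KO cells relative to WT in Hs578T (horizontal) and MDA-MB-231 (vertical) for 189 of the 192 tested actin regulators, with colours for the genes called in each line. IQGAP2 and EPS8L3, without counts in Hs578T CD44 KO, and PPFIA2, without counts in Hs578T, are left out, and CORO2B in Hs578T and TMOD1 and MYLK3 in MDA-MB-231 rest on 10 counts or fewer. LCP1 is called in both lines, at 0.88 and -1.22.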

How the data were processed

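The 12 RNA libraries comprised 4 groups of 3. The authors aligned reads to GRCh38 with HISAT2 2.1.0 and counted fragments per gene by strand with featureCounts 1.6.2, leaving out fragments of several places or genes. The deposited values are whole-number counts for 58381 genes, without normalization, and 57754 of these were given a current name. One library of MDA-MB-231 CD44 WT had no replicate number that its name could settle. Totals of 10257586 to 19725543 counts limit the precision for genes with few counts.

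Genes above 1 CPM in 2 or more libraries and with 300 nt of exons or more were fitted in R 4.3.3 with edgeR 4.0.16 (TMM, glmQLFit, glmQLFTest, 4 group means), and called where the p adjusted by Benjamini-Hochberg was 0.01 or less. The length filter is printed as less than 300 nt in the methods and was read as at least 300 nt. The members, the gene lists and the tests were chosen with earlier results of these data known. From each list the text names up to 4 called genes with the largest fold changes among those of at least 5 CPM whose libraries do not overlap, and genes called in both lines. The counts of 1 list and 1 gene alike to KANK1 are not reported here. On simulated data, changes were set only in genes of over 5 CPM on average. Of these, 89% of genes changed by a log2 fold of 1 and 98% of those changed by 2 were recovered in Hs578T. Of the 15836 genes simulated, those set without a change gave 2 false calls. Recovery of genes with lower counts, as several members had, was not simulated. Alternatives comprised DESeq2 1.42.0, scaling by RLE or by library size alone, other filters, thresholds and fits, the replicate number as a block and each library left out.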

Additional observations from a re-analysis of the deposited data

Results flagged for a closer look

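Among the paralogs and the listed actin regulators, the change in CD44 KO cells was unlike in the 2 lines for COBLL1 and for 10 of the 192 regulators tested, or 5.21%, by the test of the difference itself (edgeR's quasi-likelihood test, adjusted p of at most 0.01), against 4.12% of all genes. The difference of the log2 fold changes, Hs578T minus MDA-MB-231, was 3.46 for COBLL1, 4.19 for SCIN, 2.86 for DAAM2, 2.66 for PPFIBP2 and 2.09 for LCP1. It was -1.81 for SYNPO, -1.73 for EPS8L2, -1.19 for FHOD3, -0.70 for CDK1 and -0.54 for RAC1, a small GTPase. IQGAP2 passed as well, but its fitted difference depends on the prior count, since it had no counts in Hs578T CD44 KO. PPFIBP2, IQGAP2 and RAC1 were named after their values were seen. The genes alike to MISP, KANK1 and COBL were chosen by their values and were left out of this count.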

How the results depend on the processing

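No value past its threshold changed sign under any alternative that was run, and among the others COBLL1 in MDA-MB-231 and the difference between lines of EPS8 did, both near 0. The number of actin regulators called in Hs578T (16) was 30 without a filter on low counts, 30 with each line fitted alone, 32 at an adjusted p of at most 0.05, 6 when a fitted log2 fold of 1 or more was required, and 7 to 30 with a library left out. In MDA-MB-231 the number (10) was 21 with DESeq2, 25 without the filter, 6 with the line alone, 25 at the looser p, 6 at the fold limit, and 5 to 12 with a library left out. The single paralog called in MDA-MB-231, KANK2, became 0 with the line alone and at the fold limit, and 0 to 1 with a library left out. Those called for the difference between lines (1) became 2 with DESeq2, without the filter, with robust estimation and at the looser p, and 1 to 2 with a library left out. Between the WT lines 9 genes became 5 at the fold limit and 7 to 9 with a library left out. The cause of these shifts was not tested. Deviations of WT and KO libraries with the same replicate number correlated by -0.0957 to 0.0222 (Hs578T) and by 0.00793 and 0.164 (MDA-MB-231). The deposited library names also carry a running number, which would match the Hs578T libraries differently from the replicate numbers. Pairing by it was not tested, so these values do not decide whether the libraries were paired. With the replicate block, which leaves out the unnumbered library, 5 regulators and 0 paralogs were called in MDA-MB-231, and all called genes numbered 828 in Hs578T, where they had been 1189, and 190 in MDA-MB-231, where they had been 731. The newer quasi-likelihood fit was chosen after seeing the data and moved no count by over 1.5 times.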
